A study of Mus musculus with 12 samples.

Results

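The 4 Ba/F3 lines that carry SFPQ-ABL1 were compared with the 4 lines that carry BCR-ABL1, which together make up 8 of the 12 RNA sequencing libraries of the study. Members were taken by their labelled genotype. Ba/F3 is a mouse line labelled as pro-B cells, and all 8 of these lines were grown without IL-3, so that the fusion is the labelled difference between them. The remaining 4 lines carry the empty retroviral vector MSCV and were kept in 0.5 ng/ml of murine IL-3. They entered the fit and are given as values beside some of the results, with no comparison of their own. The lines are described as biologically independent, and the sources used here do not say whether a line is a single clone or give the promoter and species of the fusion sequences. All cells were in exponential growth when they were collected, and no drug was given.

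ABL1 is a tyrosine kinase whose SH3 and SH2 domains hold the kinase domain in check. In BCR-ABL1, the oncogene of chronic myeloid leukaemia and of a form of acute lymphoblastic leukaemia, the BCR part joins several molecules together and so switches the kinase on, and its phosphorylated BCR part recruits GRB2 and with it the RAS to ERK pathway. SFPQ-ABL1 is a rarer fusion of acute lymphoblastic leukaemia, in which the amino-terminal part of SFPQ, an RNA-binding protein of nuclear bodies called paraspeckles, is joined to a shorter part of ABL1. IL-3 normally keeps Ba/F3 cells alive through JAK2 and STAT5, and an active ABL1 fusion can take the place of that signal.

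The exons of the fusion partners were examined first, as a check of the labels. Abl1 exon 3 (mm10, chr2:31778921-31779216, plus strand) is shown because the fusions differ in it, and Sfpq exon 9 (mm10, chr4:127027397-127027518, plus strand) because its counts were high in the SFPQ-ABL1 lines. Both are the mouse sequences of GENCODE release M21, numbered on the first-listed transcript of each gene and in lower case throughout.
Abl1 exon 3: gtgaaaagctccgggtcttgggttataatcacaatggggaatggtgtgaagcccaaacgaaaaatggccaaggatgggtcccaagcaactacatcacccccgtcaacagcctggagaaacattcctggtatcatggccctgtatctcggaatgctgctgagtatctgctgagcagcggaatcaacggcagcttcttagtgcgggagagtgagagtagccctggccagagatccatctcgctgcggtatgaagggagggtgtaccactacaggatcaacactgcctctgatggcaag
Sfpq exon 9: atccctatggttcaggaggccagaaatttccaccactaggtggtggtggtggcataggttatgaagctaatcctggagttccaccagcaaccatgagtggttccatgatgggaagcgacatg

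Exon values are CPM, with exon counts scaled by the gene total of the same library, and values per line are given in the order of lines 1 to 4. Abl1 exon 3 stood at 4.0, 3.67, 3.99 and 2.21 with BCR-ABL1 and at 0.224, 0.238, 0.397 and 0.354 with SFPQ-ABL1, where the MSCV lines had 0.185 to 0.454. Sfpq exon 9 stood at 1.897, 1.98, 1.53 and 3.599 with BCR-ABL1 and at 14.5, 4.39, 17.1 and 20.02 with SFPQ-ABL1, beside 1.57 to 2.09 with MSCV. On neither exon did the groups overlap, and each of the 8 lines was on the side of its label. Line 4 of BCR-ABL1 had the lowest exon 3 value of its group, and its Sfpq exon 9 value was above every MSCV line and below every SFPQ-ABL1 line. SFPQ-ABL1 line 2 had the lowest Sfpq exon 9 value of its group. Abl1 exon 9 lies in the part that both fusions keep and stood at 11.8, 9.23, 11.5 and 20.8 with BCR-ABL1 and at 17.8, 4.36, 20.9 and 26.8 with SFPQ-ABL1. Here the groups did overlap, with BCR-ABL1 line 4 highest in its group and SFPQ-ABL1 line 2 lowest of all 8. The first exon of Bcr stood at 1.65, 1.33, 2.64 and 2.55 with BCR-ABL1 and at no more than 0.304 in any SFPQ-ABL1 line, without overlap.

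**Figure D1:**
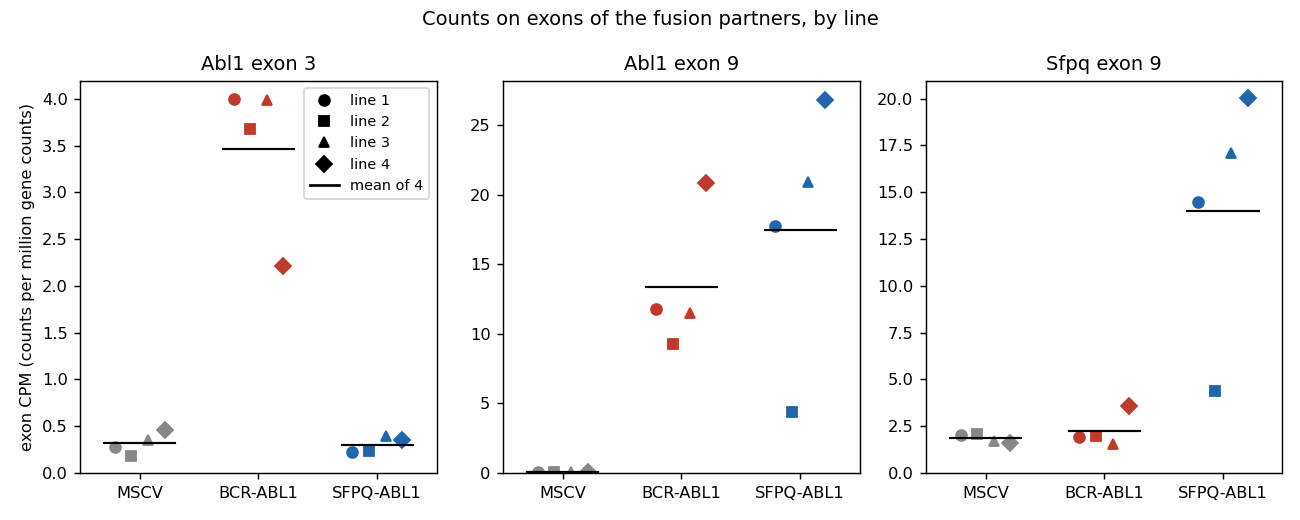
Exon CPM, scaled by the gene total (vertical axis, linear from 0), on Abl1 exon 3, Abl1 exon 9 and Sfpq exon 9 in the 4 lines of each group, with a symbol for each line number and a bar at the mean of 4. BCR-ABL1 line 4 lies at 2.21 on Abl1 exon 3 and at 3.599 on Sfpq exon 9, and SFPQ-ABL1 line 2 at 4.39 on Sfpq exon 9.

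Each line was then read at genes that separate the fusions in a fit made without it, namely genes called by the test and at least 4-fold higher in the opposite fusion there. This reading was chosen after the data were seen and carries no test. BCR-ABL1 lines 1, 2 and 3 had a median of 14.2%, 13.2% and 9.47% of the SFPQ-ABL1 mean at 169, 164 and 137 such genes. BCR-ABL1 line 4 had 24.2% at 205 genes, against 11.5% for the mean of the other 3 lines at the same genes, and was above each of those 3 lines at 161 of the 205. Lines 1, 2 and 3 were above each of the other 3 lines at 43 of 169, 44 of 164 and 8 of 137. In the other direction, SFPQ-ABL1 lines 1 to 4 had 5.74%, 20.5%, 10.4% and 20.2% of the BCR-ABL1 mean at 242, 360, 252 and 321 genes. They were above each of the other 3 lines of their group at 26, 181, 50 and 171 of these genes. Lines 4 of BCR-ABL1 and 2 and 4 of SFPQ-ABL1 thus stood highest in their groups, though each line was read at its own set of genes. At the genes of BCR-ABL1 line 4, the MSCV lines had a median of 53.6% of the SFPQ-ABL1 mean. At those of SFPQ-ABL1 lines 2 and 4 the MSCV lines had 19.98% and 19.1% of the BCR-ABL1 mean. The other 3 SFPQ-ABL1 lines had 13.2% and 12.7% there. Whether these lines lay toward the opposite fusion rather than toward the MSCV lines was not tested. A stricter rule, with genes at 5 CPM or more in every line of the opposite fusion and 0.5 CPM or less in the other 3 lines, left Ston2 alone for BCR-ABL1 line 4 (13.7% of the SFPQ-ABL1 mean) and no gene for lines 1 to 3. For SFPQ-ABL1 it left Clec4e alone for lines 1, 2 and 3 (0.0905%, 1.58% and 0.164% of the BCR-ABL1 mean), and Eya2, Fam198b and Clec4e for line 4 (median 12.1%). Whether BCR-ABL1 line 4 holds cells or RNA of SFPQ-ABL1 was not tested, and results that move without it are given both ways.

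**Figure D2:**
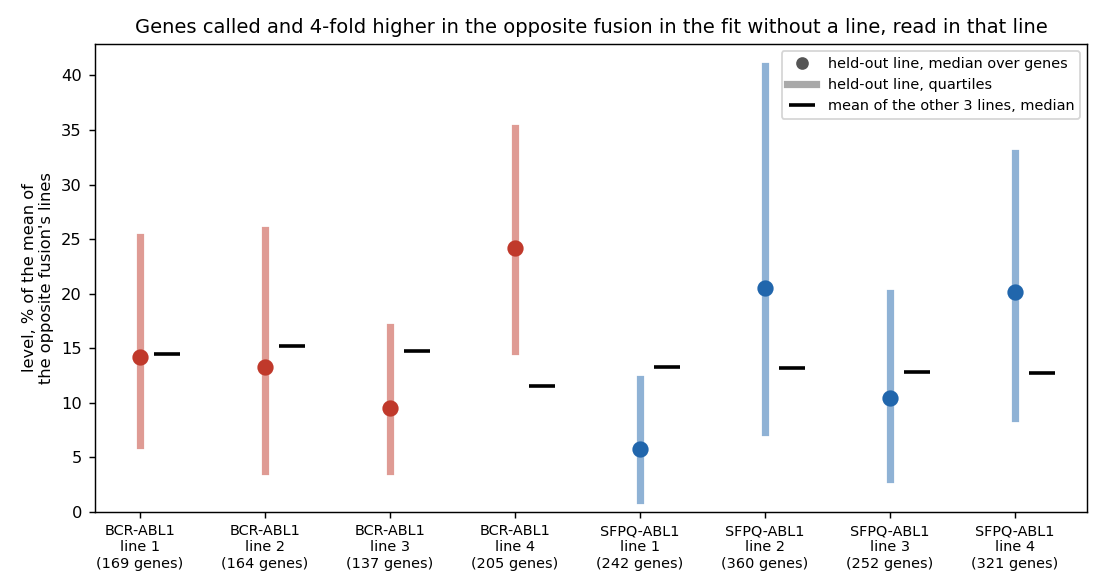
Level of each of the 8 fusion lines (horizontal axis, with the number of genes read) as a percentage of the mean of the opposite fusion (vertical axis, linear), at genes called and at least 4-fold higher in the opposite fusion when that line was left out of the fit. Points are medians over genes, thick bars run from the lower to the upper quartile, and the short black bars give the mean of the other 3 lines of the group, with BCR-ABL1 line 4 at 24.2% against 11.5%.

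Gene totals of the 8 libraries ran from 59355018 to 80616227 counts, so that 1 CPM stood for 61.1 to 82.2 counts after TMM scaling, and 1.56 to 2.07% of counts were mitochondrial. The first principal component of log2 CPM in the 8 lines held 52.3% of the variance, with BCR-ABL1 lines at -57.1 to -32.7 and SFPQ-ABL1 lines at 21.1 to 65.0, line 2 being the one at 21.1. The pro-B label was borne out only in part. Of 11 early B-lineage markers, Ebf1, Igll1, Rag1, Dntt and Cd93 were under 0.1 CPM in all 8 lines and Pax5, the B-lineage commitment factor, was at most 0.108 CPM. The B cell receptor chains Cd79a and Cd79b were present at 33.6 to 63.6 and 15.4 to 36.6 CPM. Among markers of other blood cells, the summed level of 6 granulocyte and monocyte markers was 181 to 325 CPM with BCR-ABL1 and 489 to 549 CPM with SFPQ-ABL1. Most of it was Ms4a3, and of the 5 markers tested 3 were called higher with SFPQ-ABL1, namely Ms4a3, Mpo and Elane. Elane was low and its lines overlapped, at 0.0822 to 0.297 CPM with BCR-ABL1 and 0.0909 to 1.93 CPM with SFPQ-ABL1. Lyz2 and Csf1r were not called. S100a8, which was not tested, was at 0.0270 to 0.186 CPM with BCR-ABL1 and at 0 with SFPQ-ABL1. Sums of mast cell markers (7.12 to 52.7 against 8.14 to 12.8 CPM), erythroid and megakaryocyte markers (90.6 to 461 against 142 to 1045 CPM) and T and NK cell markers (0.896 to 48.5 against 1.29 to 45.6 CPM) overlapped. The last was nearly all Gzmb, with Cd8a and Ncr1 under 0.1 CPM in all 8 lines, and stromal markers summed to under 1 CPM in every line. In these bulk libraries, fewer cells of a type and less RNA per cell cannot be told apart.

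Of 17197 genes tested, 4471 (26%) were called at an adjusted p under 0.05 by edgeR's quasi-likelihood test with Benjamini-Hochberg adjustment, which gives every adjusted p below. With SFPQ-ABL1, 2268 (13.2%) were higher and 2203 (12.8%) lower. Without TMM factors the calls were 2841 higher and 1750 lower, so that the share of calls that were higher went from 50.7% to 61.9%. Without BCR-ABL1 line 4 there were 3629 calls, which held 76.7% of the genes called with all lines, and without SFPQ-ABL1 line 2 there were 4508, which held 86.8% of them. The lines of the groups did not overlap at all for 3739 of the called genes (21.7% of those tested) and for 4792 genes, called or not (27.9%). A change of at least 2-fold was found for 592 genes called higher (3.44%) and 722 called lower (4.2%). Over all genes tested, the median log2 fold change, SFPQ-ABL1 minus BCR-ABL1, was 0.01. CPM below are scaled by TMM factors, and a fold is that of the fitted log2 fold change.

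Several of the genes furthest above BCR-ABL1 in the SFPQ-ABL1 lines were nearly silent in BCR-ABL1 lines 1 to 3 and less so in line 4. Aldh1a1 (mm10, chr19:20492715-20643465), which encodes a retinaldehyde dehydrogenase, stood at 2.32, 1.84, 0.683 and 40.2 CPM with BCR-ABL1 and at 503, 71.7, 215 and 367 CPM with SFPQ-ABL1. Ston2, an endocytic adaptor gene, stood at 0.121, 0.288, 0.0759 and 4.55 CPM with BCR-ABL1 and at 23.1, 9.98, 47.03 and 52.5 CPM with SFPQ-ABL1. For Nlrp6, an inflammasome receptor gene, the values were 0.0270, 0.0137, 0 and 1.81 CPM with BCR-ABL1 and 3.97, 5.92, 18.3 and 20.9 CPM with SFPQ-ABL1. In each of these 3 genes BCR-ABL1 line 4 was far above the other lines of its group and below every SFPQ-ABL1 line. The differences were 25.8-fold for Aldh1a1 (log2 fold change 4.69 ± 1.18 SE, adjusted p = 0.0113), 26.6-fold for Ston2 (log2 fold change 4.73 ± 1.07 SE, adjusted p = 0.00626) and 26.9-fold for Nlrp6 (log2 fold change 4.75 ± 1.16 SE, adjusted p = 0.00960). Without BCR-ABL1 line 4 they were 178-fold for Aldh1a1 and 200.6-fold for Ston2. Nlrp6 was then left with 3 counts in 3 BCR-ABL1 lines, a ratio of 851 with a counting interval (95%, exact binomial) of 291 to 4130. The MSCV lines had 264 ± 172 CPM of Aldh1a1, 5.97 ± 3.64 CPM of Ston2 and 0.0963 ± 0.0579 CPM of Nlrp6 (mean ± SD, n = 4).

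Slamf1, a receptor gene of the signalling lymphocyte activation molecule family, stood at 0.633, 0.946, 0.531 and 3.86 CPM with BCR-ABL1 and at 25.9, 16.04, 38.99 and 33.9 CPM with SFPQ-ABL1 (19.3-fold, adjusted p = 0.000600; 40.6-fold without BCR-ABL1 line 4). Mst1r, the gene of the receptor tyrosine kinase RON, stood at 2.36, 1.66, 1.11 and 3.69 CPM with BCR-ABL1 and at 41.3, 11.5, 43.2 and 33.8 CPM with SFPQ-ABL1 (14.7-fold, adjusted p = 0.000141). Slc34a3, a sodium-phosphate cotransporter gene, stood at 0.647, 0.301, 0.501 and 1.19 CPM with BCR-ABL1 and at 7.27, 2.68, 14.9 and 11.8 CPM with SFPQ-ABL1 (13.9-fold, adjusted p = 0.000410). No SFPQ-ABL1 line of these genes came down to a BCR-ABL1 line. The rest of the 10 largest were Plxdc1 (40.96-fold; 74.3-fold without BCR-ABL1 line 4), Rnase6 (26.4-fold; 65.2-fold without it), the mucin gene Muc6 (22.3-fold) and Rnf224 (14.8-fold). SFPQ-ABL1 line 2 was the lowest of its group in Plxdc1, Rnase6, Muc6, Mst1r and Slc34a3. Mean MSCV levels were 5.38 CPM for Slamf1, 15.5 for Mst1r, 16.8 for Slc34a3 and 9.22 for Rnf224 (6.01 with SFPQ-ABL1). They were 4.39 CPM for Plxdc1, 0.290 for Rnase6 and 38.3 for Muc6. Among genes at 100 CPM or more, Scin, which encodes an actin-severing protein of the gelsolin family, stood at 138, 231, 23.1 and 205 CPM with BCR-ABL1 and at 1417, 1430.0, 1986 and 1806 CPM with SFPQ-ABL1 (11.1-fold, log2 fold change 3.47 ± 0.51 SE, adjusted p = 0.000527). Plac8 stood at 199.5, 259, 104 and 284 CPM with BCR-ABL1 and at 1589, 1075, 1924 and 1938 CPM with SFPQ-ABL1 (7.71-fold, adjusted p = 0.000125). Both were apart in every line, and the MSCV lines had 1947 ± 476 CPM of Scin and 1549 ± 540.3 CPM of Plac8 (mean ± SD, n = 4). Twsg1, which encodes a secreted modulator of BMP signalling, was 7.66-fold higher and the adhesion receptor gene Adgrg5 4.96-fold. Mettl7a1 was 13.03-fold higher (19.7-fold without BCR-ABL1 line 4), with the reserve that reads may be shared with close paralogs. The smallest adjusted p among higher genes belonged to Rfc2, a subunit gene of the clamp loader of DNA replication, at 114, 90.2, 98.01 and 91.99 CPM with BCR-ABL1 and at 236, 247, 248 and 238 CPM with SFPQ-ABL1 (log2 fold change 1.30 ± 0.094 SE, adjusted p = 9.83e-06). Acat2, which encodes an acetyl-CoA acetyltransferase that supplies sterol synthesis, was 2.69-fold higher, Rgl1 2.57-fold and Ccdc157 2.47-fold. The MSCV lines had 490 ± 116 CPM of Mettl7a1 and 329 ± 29.5 CPM of Rfc2, beside 560 ± 131 and 242 ± 6.14 CPM with SFPQ-ABL1.

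Genes with large differences below BCR-ABL1 included Clec4e, Pf4 and Spp1. Clec4e (mm10, chr6:123281789-123289870), which encodes the pattern receptor Mincle, stood at 6.93, 23.7, 8.44 and 20.2 CPM with BCR-ABL1 and at 0.0134, 0.234, 0.0243 and 0.0818 CPM with SFPQ-ABL1. Pf4, a platelet chemokine gene, stood at 3.59, 6.797, 4.19 and 12.97 CPM with BCR-ABL1 and at 0.0536, 0.195, 0.0365 and 0.180 CPM with SFPQ-ABL1. Spp1, which encodes osteopontin, stood at 109.6, 530.5, 266 and 789.7 CPM with BCR-ABL1 and at 7.89, 26.4, 9.77 and 23.4 CPM with SFPQ-ABL1. The groups were well apart for all 3, with line 1 the lowest of the BCR-ABL1 lines. The differences were 165-fold for Clec4e (log2 fold change -7.36 ± 0.82 SE, adjusted p = 0.000134; 381-fold without SFPQ-ABL1 line 2), 59.6-fold for Pf4 (log2 fold change -5.90 ± 0.65 SE, adjusted p = 0.000130) and 25.2-fold for Spp1 (log2 fold change -4.65 ± 0.57 SE, adjusted p = 0.000213). The early activation marker Cd69 stood at 7.197, 33.97, 15.3 and 38.03 CPM with BCR-ABL1 and at 0.0670, 1.403, 0.0487 and 1.67 CPM with SFPQ-ABL1 (30.1-fold, adjusted p = 0.00220; 46.6-fold without SFPQ-ABL1 line 4). The chemokine receptor gene Ccr1 stood at 3.77, 20.5, 7.23 and 7.498 CPM with BCR-ABL1 and at 0.0134, 0.714, 0.109 and 0.196 CPM with SFPQ-ABL1 (37.3-fold, adjusted p = 0.000634; 23.7-fold without BCR-ABL1 line 2 and 93.1-fold without SFPQ-ABL1 line 2). Neither gene overlapped between the groups. Mean MSCV levels were 0.228 CPM for Clec4e, 0.125 for Pf4, 49.7 for Spp1, 0.172 for Cd69 and 1.76 for Ccr1.

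In several of these genes a single BCR-ABL1 line set the size of the difference. Gpr141, an orphan receptor gene, stood at 1.75, 35.9, 1.94 and 2.22 CPM with BCR-ABL1, and the 4 SFPQ-ABL1 libraries held 4 counts of it in all, 3 of them in line 2. Its fitted difference was 684-fold (adjusted p = 0.00158), 129-fold without BCR-ABL1 line 2. Of 21 alternative fits 20 called it, and the last gave it no adjusted p. Without SFPQ-ABL1 line 2 a single count was left, a ratio of 2375 with a counting interval of 426 to 93831. Line 4 was the highest for Lcn2, an iron-binding lipocalin gene, at 4.003, 12.7, 14.6 and 67.7 CPM with BCR-ABL1 and at 0.469, 1.29, 0.535 and 1.49 CPM with SFPQ-ABL1 (26.3-fold, adjusted p = 0.000896; 11.1-fold without line 4). It was also the highest for Fgf23, a phosphate-regulating hormone gene, at 4.08, 8.83, 10.4 and 40.6 CPM with BCR-ABL1 and at 0.0670, 0.481, 0.182 and 0.458 CPM with SFPQ-ABL1 (54.2-fold, adjusted p = 0.000646; 26.3-fold without line 4). All 4 BCR-ABL1 lines remained above all 4 SFPQ-ABL1 lines in Gpr141, Lcn2 and Fgf23. Avil, an actin-binding protein gene, was 26.1-fold lower (15.2-fold without BCR-ABL1 line 4), and Cox6a2, a respiratory chain subunit gene, 48.2-fold (23.3-fold without that line and 78.8-fold without SFPQ-ABL1 line 4). The lectin receptor gene Clec4d was 29.1-fold lower (53.9-fold without SFPQ-ABL1 line 4).

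Cyb5r1 stood at 213, 283, 291 and 331 CPM with BCR-ABL1 and at 41.2, 47.3, 43.5 and 60.3 CPM with SFPQ-ABL1 (5.81-fold lower, log2 fold change -2.54 ± 0.18 SE, adjusted p = 9.83e-06). Ero1l, which encodes an oxidase of protein folding in the endoplasmic reticulum, stood at 690.1, 2989, 1988 and 2617 CPM with BCR-ABL1 and at 104, 479, 354 and 456 CPM with SFPQ-ABL1 (5.95-fold lower, adjusted p = 0.00247), with line 1 lowest in both groups and BCR-ABL1 line 1 the nearest to the SFPQ-ABL1 lines. Tbpl1, a gene of a TATA-binding protein relative, stood at 88.4, 94.7, 93.5 and 106 CPM with BCR-ABL1 and at 39.9, 40.2, 39.6 and 42.3 CPM with SFPQ-ABL1 (log2 fold change -1.24 ± 0.077 SE, adjusted p = 8.94e-06). Stk40 was 2.52-fold lower, the lipid-binding protein gene Stard5 3.63-fold and the phospholipase gene Pla2g2e 15.5-fold, at adjusted p of 8.94e-06, 9.35e-06 and 9.35e-06. Dmpk, a kinase gene, stood at 160.5, 134, 159.8 and 99.6 CPM with BCR-ABL1 and at 2.72, 77.4, 4.76 and 11.2 CPM with SFPQ-ABL1, with SFPQ-ABL1 line 2 far above the other lines of its group though below every BCR-ABL1 line. Its 5.76-fold difference (adjusted p = 0.0388) was 22.4-fold without that line (adjusted p = 0.000250). It was not called without BCR-ABL1 line 1, 2, 3 or 4 (adjusted p = 0.0649, 0.0652, 0.0775 and 0.0528) or without SFPQ-ABL1 line 1, 3 or 4 (0.0611, 0.0882 and 0.0978), nor in the fit of the 8 libraries alone (0.0631).

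**Figure D3:**
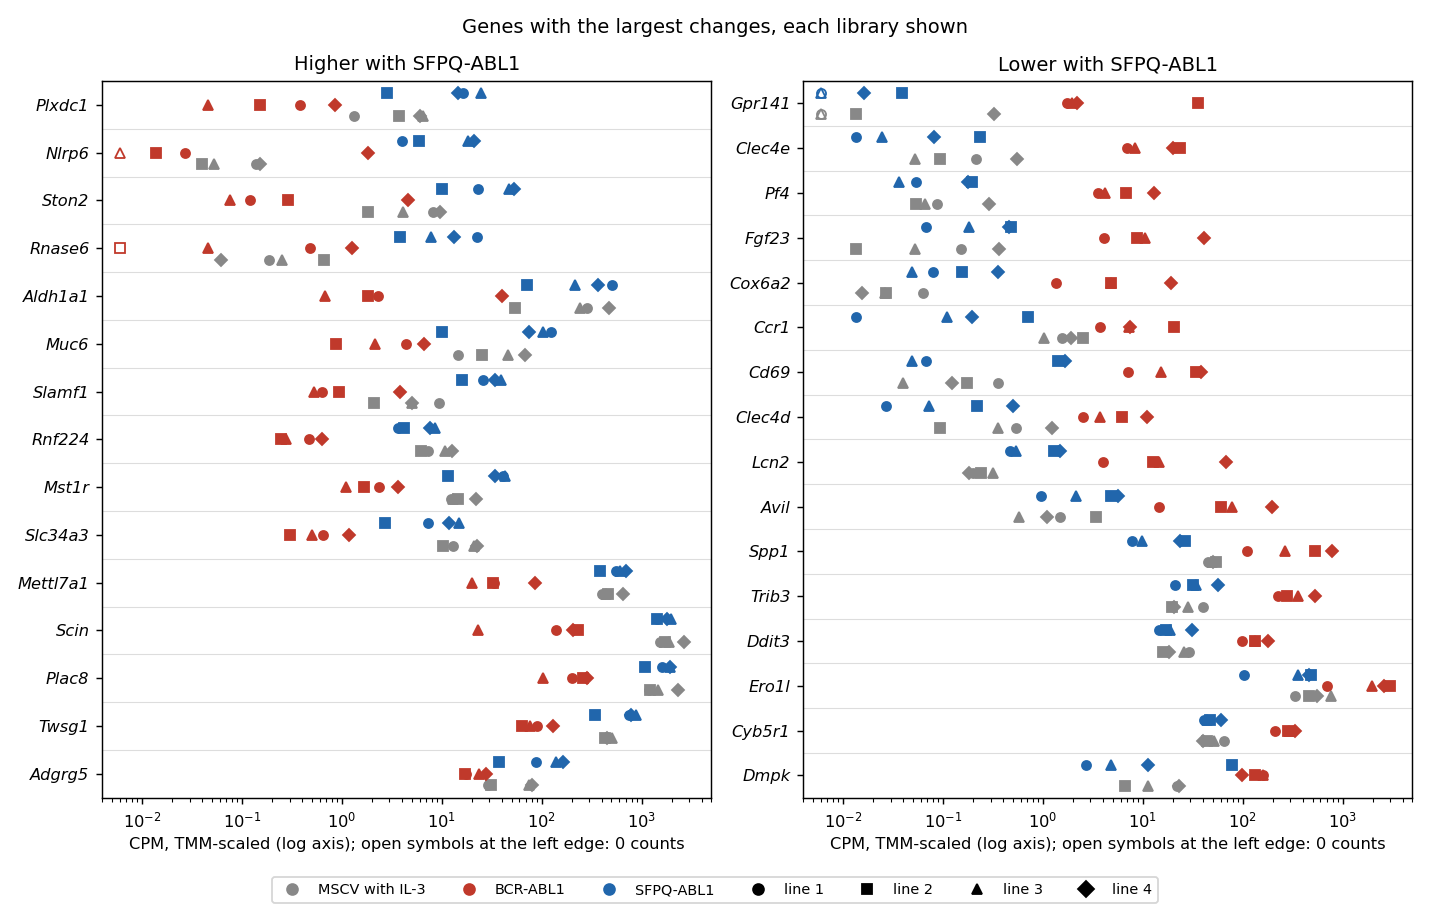
CPM on a log axis in each of the 12 libraries for the genes with the largest differences in each direction, with colour for the group and a symbol for the line number; open symbols at the left edge stand for 0 counts. BCR-ABL1 line 4 (red diamonds) lies to the right of its group in Nlrp6 (1.81 CPM), Ston2 (4.55) and Aldh1a1 (40.2), and SFPQ-ABL1 line 2 (blue squares) to the right of its group in Dmpk (77.4).

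Genes that ATF4 controls in the amino acid response were lower with SFPQ-ABL1 almost without exception. ATF4 is a transcription factor whose translation rises when amino acids are short or the endoplasmic reticulum is under stress, and which switches on amino acid transport and synthesis. Of 22 measured genes 21 were called lower and 1 higher, and in all 22 the lines of the groups did not overlap (median log2 fold change -1.24). Without BCR-ABL1 line 4, 20 were lower. Trib3 (mm10, chr2:152337422-152344032), a pseudokinase gene, stood at 226, 275, 361 and 535 CPM with BCR-ABL1 and at 20.99, 31.7, 33.8 and 56.9 CPM with SFPQ-ABL1 (9.75-fold, log2 fold change -3.28 ± 0.35 SE, adjusted p = 0.000104). Ddit3, which encodes the stress factor CHOP, stood at 98.3, 133, 132 and 178 CPM with BCR-ABL1 and at 14.5, 17.1, 18.9 and 31.3 CPM with SFPQ-ABL1 (6.62-fold, log2 fold change -2.73 ± 0.27 SE, adjusted p = 9.14e-05). Pycr1, a proline synthesis enzyme gene, stood at 41.3, 41.9, 51.6 and 35.3 CPM with BCR-ABL1 and at 6.85, 9.197, 10 and 14.6 CPM with SFPQ-ABL1 (4.19-fold, log2 fold change -2.07 ± 0.24 SE, adjusted p = 0.000141). In Trib3 and Ddit3 line 4 was the highest of each group, and no SFPQ-ABL1 line reached even the lowest BCR-ABL1 line. Sesn2, which encodes a leucine sensor that restrains mTORC1 and is also on the p53 list, was 2.37-fold lower (adjusted p = 9.24e-05). Of members singled out after their values were seen, the asparagine synthetase gene Asns stood at 349, 406, 413 and 377 CPM with BCR-ABL1 and at 101, 96.02, 115 and 134 CPM with SFPQ-ABL1 (3.46-fold lower, adjusted p = 0.000165). The cystine transporter gene Slc7a11 stood at 33.6, 46.4, 37.8 and 40.01 CPM with BCR-ABL1 and at 13.7, 10.7, 12.6 and 16.8 CPM with SFPQ-ABL1 (2.94-fold lower, adjusted p = 0.000190). Both were lower in every SFPQ-ABL1 line, and the MSCV lines had 88.6 ± 30.6 CPM of Asns and 9.14 ± 2.41 CPM of Slc7a11. Atf4 itself was 1.57-fold lower (adjusted p = 0.0186) and missed the threshold when BCR-ABL1 line 4 or SFPQ-ABL1 line 3 was left out (0.0579 and 0.0595). Psph, a serine synthesis gene, was the member that was higher, at 5.19, 5.25, 4.78 and 4.37 CPM with BCR-ABL1 and at 7.01, 7.37, 6.61 and 6.84 CPM with SFPQ-ABL1 (1.42-fold, adjusted p = 0.00699).

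ATF4 and its partners bind composite elements with the core TGATGCAA. Among 21 called members with an entry in the RefSeq promoter table (GRCm38.p6), 3 held TGATGCAA or its reverse complement TTGCATCA in the 250 bases before the annotated start, namely Slc7a11, Nupr1 and Pycr1. Of the 10402 tested genes with an entry, 0.673% did. The windows of Pycr1 (mm10, chr11:120643749-120643998, minus strand) and Slc7a11 (chr3:50443614-50443863, minus strand) are printed in the direction of transcription, with the matches in capitals. They were taken as the 2 called members with a match that had the smallest adjusted p. A match describes these letters and is not a measured binding site.
Pycr1 upstream: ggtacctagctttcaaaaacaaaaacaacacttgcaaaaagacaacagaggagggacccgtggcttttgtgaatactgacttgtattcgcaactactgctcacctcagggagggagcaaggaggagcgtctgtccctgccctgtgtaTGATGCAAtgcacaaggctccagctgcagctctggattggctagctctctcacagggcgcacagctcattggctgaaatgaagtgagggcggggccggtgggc
Slc7a11 upstream: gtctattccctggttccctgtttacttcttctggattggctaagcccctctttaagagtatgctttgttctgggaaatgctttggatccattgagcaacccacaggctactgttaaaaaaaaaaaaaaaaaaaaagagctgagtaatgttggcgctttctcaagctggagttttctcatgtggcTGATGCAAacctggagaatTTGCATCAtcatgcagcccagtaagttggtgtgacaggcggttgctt
The match in Pycr1 begins 103 bases before the start, and those in Slc7a11 begin 66 and 47 bases before it. The STAT motif TTCNNNGAA was searched in the same way in the STAT5 and IL-3 response genes described below, of which 2 called members had an entry and 0 held it, beside 7.24% of all tested genes with an entry.

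Cytosolic aminoacyl-tRNA synthetases, the enzymes that load amino acids onto tRNAs and of which many are ATF4 targets, were lower in the same lines. Of 20 genes 15 were called lower and 1 higher, with a median log2 fold change of -0.70. Sars stood at 609, 715, 742 and 607 CPM with BCR-ABL1 and at 209, 308, 245 and 269 CPM with SFPQ-ABL1 (2.59-fold, adjusted p = 8.77e-05). Lars stood at 322, 373, 368 and 401 CPM with BCR-ABL1 and at 171, 169, 164 and 178 CPM with SFPQ-ABL1 (2.15-fold, adjusted p = 9.24e-05). Eprs and Nars were 2.34-fold and 2.33-fold lower (adjusted p = 9.24e-05 and 0.000193), and in these 4 genes every SFPQ-ABL1 line was under every BCR-ABL1 line. Spread among lines was small, since the median member was 0.30 to 0.41 above the mean of the 8 lines in the BCR-ABL1 lines and at -0.47 to -0.27 in the SFPQ-ABL1 lines, in log2(CPM + 0.1). Farsa, a subunit gene of phenylalanyl-tRNA synthetase, was the one that was higher, at 112, 98.9, 97.6 and 97.01 CPM with BCR-ABL1 and at 203, 146, 172 and 143 CPM with SFPQ-ABL1 (1.64-fold, adjusted p = 0.000874), while its partner Farsb was 1.62-fold lower (adjusted p = 0.000987).

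Genes of cholesterol synthesis and uptake were higher with SFPQ-ABL1. This pathway is driven by the factor SREBP2 when sterols are short. Of 23 measured genes 17 were called higher and none lower (median log2 fold change 0.63), and of the 6 not called all had positive values, from 0.15 (Tm7sf2) to 0.48 (Srebf2). Idi1, an isoprenoid isomerase gene, stood at 30.04, 26.98, 28.4 and 23.8 CPM with BCR-ABL1 and at 112, 92.3, 88.7 and 76.1 CPM with SFPQ-ABL1 (3.38-fold, log2 fold change 1.76 ± 0.20 SE, adjusted p = 0.000152). Fdps, the farnesyl diphosphate synthase gene, stood at 5.82, 5.43, 5.299 and 5.47 CPM with BCR-ABL1 and at 14.9, 10.4, 15.1 and 12.7 CPM with SFPQ-ABL1 (2.41-fold, log2 fold change 1.27 ± 0.13 SE, adjusted p = 9.24e-05). Dhcr7, the gene of the last reductase of the pathway, stood at 20.4, 15.7, 17.7 and 16.9 CPM with BCR-ABL1 and at 44.9, 33.2, 42.7 and 46.6 CPM with SFPQ-ABL1 (2.37-fold, log2 fold change 1.24 ± 0.13 SE, adjusted p = 9.24e-05). In all 3 the lines of the groups were apart, as in 15 of the 17 called. Insig1, which encodes a sterol-sensing brake on the pathway and is itself induced by SREBP2, was 2.34-fold higher (adjusted p = 0.000208).

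**Figure D4:**
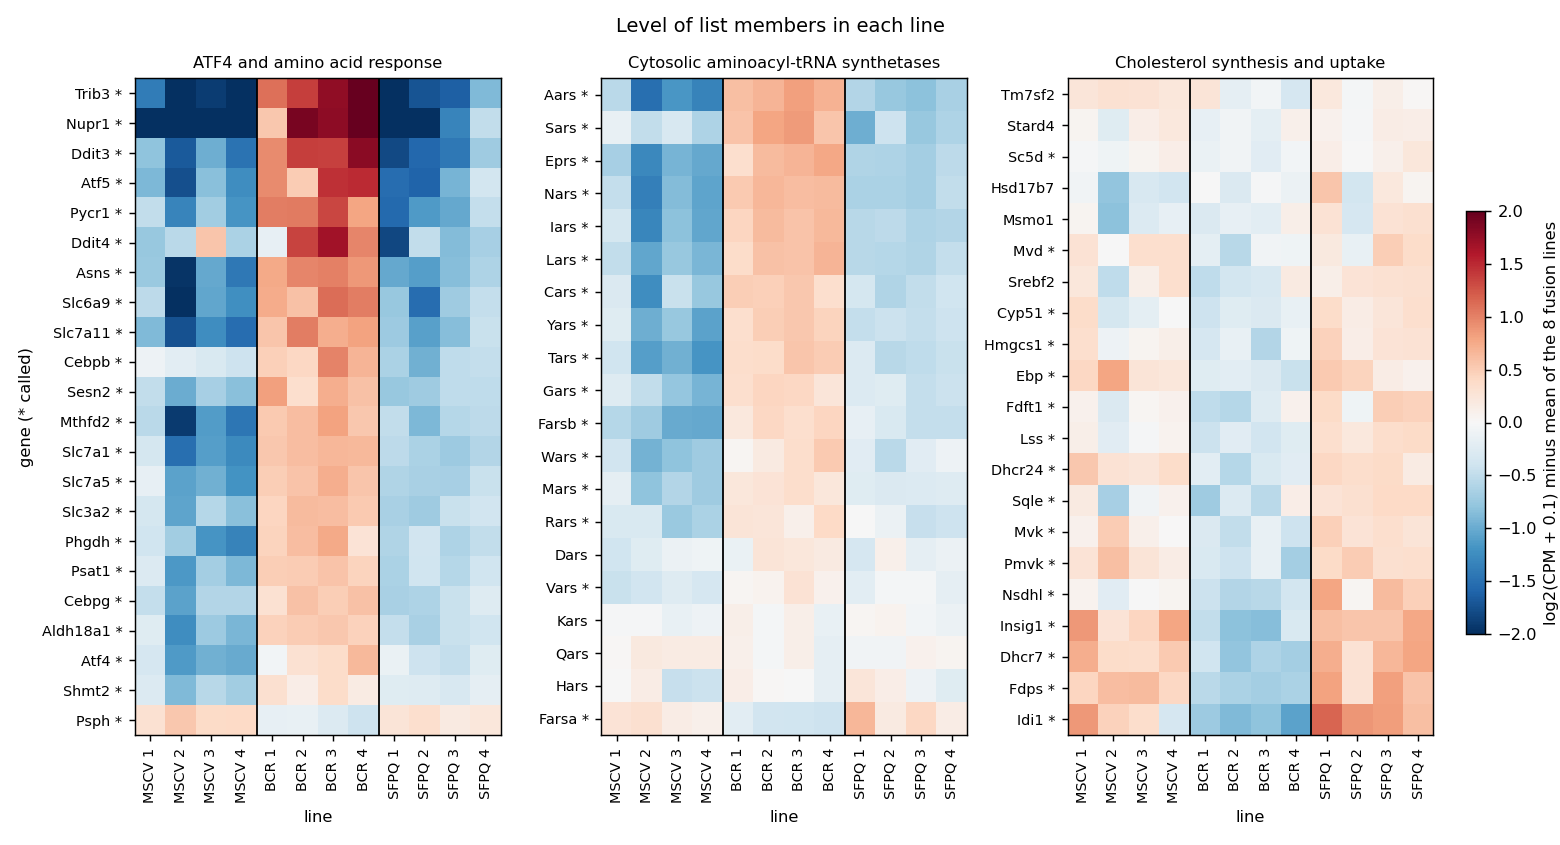
Level of the members of 3 gene lists that are reported here (rows) in each library (columns, MSCV, BCR for BCR-ABL1 and SFPQ for SFPQ-ABL1, lines 1 to 4), as log2(CPM + 0.1) minus the mean of the 8 fusion lines; the scale is clipped at 2 and asterisks mark called genes. Every BCR-ABL1 column is above every SFPQ-ABL1 column in the 21 ATF4 genes and 15 tRNA synthetase genes called lower, and below it in 14 of the 16 cholesterol genes shown that were called higher.

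Output genes of the ERK pathway, which its kinases induce within minutes and which include several of its own inhibitors, were lower with SFPQ-ABL1. Of 18 measured 11 were called lower and none higher (median log2 fold change -1.47), 11 also without BCR-ABL1 line 4 and 12 without SFPQ-ABL1 line 2. The immediate early gene Ier2 stood at 87.8, 75.7, 136 and 109 CPM with BCR-ABL1 and at 25.4, 40.6, 34.98 and 36.4 CPM with SFPQ-ABL1 (2.98-fold, log2 fold change -1.57 ± 0.20 SE, adjusted p = 0.000246). Junb, an AP-1 subunit gene, stood at 52.5, 62.01, 96.02 and 82.3 CPM with BCR-ABL1 and at 11.6, 26.2, 19.7 and 23.7 CPM with SFPQ-ABL1 (3.61-fold, log2 fold change -1.85 ± 0.24 SE, adjusted p = 0.000287). Spred1, an inhibitor of RAS activation, stood at 156, 186, 165 and 176 CPM with BCR-ABL1 and at 90.2, 122, 81.6 and 95.3 CPM with SFPQ-ABL1 (1.75-fold, log2 fold change -0.81 ± 0.12 SE, adjusted p = 0.000481). None of the 3 overlapped between the groups, and SFPQ-ABL1 line 2 was the highest of its group in each. The feedback phosphatase gene Dusp6, named after its values were seen, stood at 182, 261, 262 and 314 CPM with BCR-ABL1 and at 35.4, 125, 34.4 and 47.7 CPM with SFPQ-ABL1 (4.19-fold, adjusted p = 0.00168; 6.505-fold without SFPQ-ABL1 line 2). The AP-1 genes Fos and Fosl1 were 9.05-fold and 4.46-fold lower (adjusted p = 0.00113 and 0.000669). Egr1 and Ier3 were not called (log2 fold changes 0.08 and 0.02), and Egr1 was under 0.2 CPM in both group means.

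The STAT5 and IL-3 response list holds genes that IL-3 itself switches on. Of 16 measured, 3 were lower and none higher (18.8% called beside 26% of all genes, median -0.35, and -0.19 without BCR-ABL1 line 3), with 1 higher without SFPQ-ABL1 line 2 or MSCV line 2. Pim2, a survival kinase gene, stood at 118, 288, 217 and 200.9 CPM with BCR-ABL1 and at 16.4, 49.4, 43.2 and 77.6 CPM with SFPQ-ABL1 (4.42-fold, log2 fold change -2.14 ± 0.37 SE, adjusted p = 0.00137). Ccnd2, the cyclin D2 gene, stood at 345, 340.2, 346 and 373 CPM with BCR-ABL1 and at 152, 193, 155 and 154 CPM with SFPQ-ABL1 (2.15-fold, log2 fold change -1.11 ± 0.10 SE, adjusted p = 4.80e-05). Bcl2l1, which encodes the survival protein BCL-XL, stood at 124, 93.5, 119 and 137 CPM with BCR-ABL1 and at 46.2, 57.5, 50.3 and 55.1 CPM with SFPQ-ABL1 (2.26-fold, log2 fold change -1.18 ± 0.13 SE, adjusted p = 0.000141). The groups were apart in all 3, with Ccnd2 close to even among BCR-ABL1 lines. Pim3 was not called (2.51-fold lower, adjusted p = 0.0730). It was called without SFPQ-ABL1 line 2 (3.89-fold, adjusted p = 0.0120), by DESeq2 (0.0241) and by limma-voom (0.0189). Other STAT5 targets were not called, among them Cish at 163, 203, 259.8 and 238 CPM with BCR-ABL1 and at 136, 83.9, 218 and 274 CPM with SFPQ-ABL1 (adjusted p = 0.502) and Socs2 at 45.3 ± 3.92 and 44.8 ± 2.82 CPM (mean ± SD, n = 4 lines each, adjusted p = 0.926). The difference had an SE of 0.29 for Cish and 0.085 for Socs2 on the log2 scale.

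Among 23 genes of ABL adaptors and Src-family kinases, 8 were called lower and 2 higher (43.5% called beside 26% of all genes, median -0.22, and -0.13 without BCR-ABL1 line 2). Rin1, which encodes a RAS effector that activates ABL kinases, stood at 15.8, 23.7, 19.8 and 26.7 CPM with BCR-ABL1 and at 4.59, 4.52, 5.18 and 6.296 CPM with SFPQ-ABL1 (4.18-fold lower, log2 fold change -2.06 ± 0.18 SE, adjusted p = 4.56e-05). Gab3, a docking protein gene, stood at 1.63, 1.699, 0.926 and 3.07 CPM with BCR-ABL1 and at 10.01, 5.68, 12.6 and 15.8 CPM with SFPQ-ABL1 (6.02-fold higher, log2 fold change 2.59 ± 0.36 SE, adjusted p = 0.000380). Both were apart in every line. Sos1, the exchange factor that loads RAS, and Dok2, an adaptor that dampens ABL and RAS signals, were 2.17-fold and 1.97-fold lower (adjusted p = 0.000385 and 0.000207). The other gene called higher was Dok3, and it lost its call without BCR-ABL1 line 2 or 3 or without SFPQ-ABL1 line 1, 3 or 4 (adjusted p = 0.0581 to 0.0878). Without SFPQ-ABL1 line 2, 4 members were higher. Of 14 phosphatases that limit kinase signals, 4 were lower and 2 higher (42.9% called, median -0.24, and -0.15 without BCR-ABL1 line 2 or without SFPQ-ABL1 line 1). Ptpn6, the gene of the inhibitory phosphatase SHP-1, stood at 134, 101, 134 and 92.8 CPM with BCR-ABL1 and at 455, 309, 354 and 256 CPM with SFPQ-ABL1 (2.97-fold higher, log2 fold change 1.57 ± 0.20 SE, adjusted p = 0.000230). Inpp4b, a phosphoinositide phosphatase gene, stood at 27.5, 79.7, 36.99 and 51.8 CPM with BCR-ABL1 and at 4.07, 20.2, 14.95 and 10.97 CPM with SFPQ-ABL1 (3.904-fold lower, adjusted p = 0.00827). Neither overlapped, and the MSCV lines had 414 ± 89.7 CPM of Ptpn6. Ptpn12 and Phlpp1 were 1.33-fold and 1.27-fold lower, Phlpp1 not without BCR-ABL1 line 3 (adjusted p = 0.0569) or without a filter on low counts (0.0525). Ptpn2 (lower) and Inpp5d (higher) lost their calls in 5 and 6 of the 8 fits that left out a fusion line (adjusted p = 0.0502 to 0.068 and 0.0602 to 0.0936), so that only 1 member was higher without BCR-ABL1 line 1, 3 or 4 or without SFPQ-ABL1 line 2, 3 or 4, and 2 were lower without BCR-ABL1 line 3.

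Of 21 cytokine receptors, JAKs and STATs, 6 were higher and 2 lower (38.1% called beside 26% of all genes, median 0.20, and 0.13 without BCR-ABL1 line 3). Ifngr1, the interferon gamma receptor gene, stood at 25.2, 23.8, 21.5 and 23.4 CPM with BCR-ABL1 and at 96.1, 33.05, 74.7 and 55.7 CPM with SFPQ-ABL1 (2.76-fold, log2 fold change 1.47 ± 0.30 SE, adjusted p = 0.00330). Stat5a, a gene of the main factor below the IL-3 receptor, stood at 60.9, 41.7, 48.6 and 36.2 CPM with BCR-ABL1 and at 79.3, 61.3, 76.6 and 68.1 CPM with SFPQ-ABL1 (1.52-fold, adjusted p = 0.00853). Il3ra, the IL-3 receptor alpha chain gene, stood at 46.6, 38.1, 46.9 and 46.3 CPM with BCR-ABL1 and at 52.8, 57.3, 61.2 and 58.7 CPM with SFPQ-ABL1 (1.29-fold, adjusted p = 0.00838). These 3 genes were higher in every SFPQ-ABL1 line, with Ifngr1 lowest in line 2. The lower genes were Il2rb, an IL-2 receptor chain gene, at 15.1, 30.7, 20.9 and 23.4 CPM with BCR-ABL1 and at 2.08, 9.46, 5.09 and 10.4 CPM with SFPQ-ABL1 (3.34-fold, adjusted p = 0.00891), and Il2rg (1.62-fold, adjusted p = 0.00973).

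NF-kB targets were called lower in 10 of 17 and higher in none (median -1.67). NF-kB factors switch on inflammatory genes together with their own inhibitors. Nfkbia, the gene of the inhibitor IkBa, stood at 34.5, 98.3, 45.1 and 42.6 CPM with BCR-ABL1 and at 8.98, 17.02, 12.3 and 17.5 CPM with SFPQ-ABL1 (3.95-fold, log2 fold change -1.98 ± 0.31 SE, adjusted p = 0.000812). Nfkbiz, which encodes a nuclear IkB protein, stood at 12.8, 27.4, 20.8 and 28.8 CPM with BCR-ABL1 and at 6.698, 5.91, 7.92 and 7.77 CPM with SFPQ-ABL1 (3.17-fold, log2 fold change -1.67 ± 0.22 SE, adjusted p = 0.000301). Traf1, an adaptor gene of TNF receptors, stood at 5.93, 18.6, 7.804 and 8.77 CPM with BCR-ABL1 and at 0.750, 2.23, 1.68 and 2.49 CPM with SFPQ-ABL1 (5.75-fold, log2 fold change -2.52 ± 0.41 SE, adjusted p = 0.000937). The lines did not overlap, and BCR-ABL1 line 2 was the highest in Nfkbia and Traf1. Cxcl2, a chemokine gene, had 0.216, 0.288, 0.395 and 0.728 CPM with BCR-ABL1 and no count in any SFPQ-ABL1 library, which makes it at least 39.0-fold lower against a floor of 3 counts over the group (0.0102 CPM). Nfkb1 and Icam1 were not called (log2 fold changes -0.08 and -0.23).

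Cytokines and chemokines were lower in 8 of 15 and higher in 1 (median -1.04). Placing Cxcl2 at its bound left both medians as they were. Flt3l, the ligand gene of the receptor FLT3, stood at 32.5, 31.4, 39.7 and 41.7 CPM with BCR-ABL1 and at 13.4, 16.8, 16.8 and 20.7 CPM with SFPQ-ABL1 (2.14-fold, log2 fold change -1.10 ± 0.14 SE, adjusted p = 0.000210). Tgfb1, the transforming growth factor beta gene, stood at 303, 234, 282 and 307 CPM with BCR-ABL1 and at 119, 163, 131 and 135 CPM with SFPQ-ABL1 (2.06-fold, log2 fold change -1.04 ± 0.13 SE, adjusted p = 0.000244). Ccl3 was at most 0.458 CPM with SFPQ-ABL1 and 0.485, 2.604, 1.397 and 2.401 CPM with BCR-ABL1 (7.51-fold, adjusted p = 0.00253). All 3 were lower in every SFPQ-ABL1 line. The others called lower were Cxcl2, the macrophage growth factor gene Csf1 (5.19-fold), Ccl4 (9.83-fold; 15.5-fold without SFPQ-ABL1 line 2), Tnf (4.99-fold) and Lta (3.33-fold; 5.82-fold without SFPQ-ABL1 line 4). Lta was not called without BCR-ABL1 line 2 or without SFPQ-ABL1 line 1, 2 or 3 (adjusted p = 0.0579 to 0.0924). The gene called higher was Il4 (1.92-fold, adjusted p = 0.0346). It was not called without BCR-ABL1 line 1, 2 or 3 or without SFPQ-ABL1 line 3 or 4 (adjusted p = 0.0685 to 0.122), while without BCR-ABL1 line 4, MSCV line 2 or 4, or without SFPQ-ABL1 line 1 the count higher was 2.

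Interferon-stimulated genes split, with 6 of 18 higher and 4 lower (median -0.14). The median turned to 0.14 without BCR-ABL1 line 4, with 5 higher and 3 lower, and to 0.30 among members at a mean of 1 CPM or more. Mx1, an antiviral GTPase gene, stood at 0.418, 0.754, 0.683 and 3.58 CPM with BCR-ABL1, highest in line 4, and had 4 counts in all in the SFPQ-ABL1 libraries (87.4-fold lower, adjusted p = 0.000794; 39.9-fold without BCR-ABL1 line 4). Without SFPQ-ABL1 line 4 a single count was left, a ratio of 305 with a counting interval of 54.4 to 12077. Oas2, an oligoadenylate synthetase gene, stood at 2.98, 4.39, 3.72 and 5.298 CPM with BCR-ABL1 and at 1.38, 1.04, 1.52 and 1.41 CPM with SFPQ-ABL1 (3.06-fold lower, adjusted p = 0.000440). Stat2, a subunit gene of the interferon transcription factor, stood at 40.6, 34.5, 29.7 and 33.1 CPM with BCR-ABL1 and at 57.6, 44.6, 58.1 and 59.7 CPM with SFPQ-ABL1 (1.595-fold higher, adjusted p = 0.00128). Mx1 and Oas2 were lower and Stat2 higher in every SFPQ-ABL1 line. Without BCR-ABL1 line 3 or without SFPQ-ABL1 line 3 or 4, 3 members were higher. In antigen presentation by MHC, 5 of 14 genes were higher and 2 lower (median 0.31, and 0.21 without SFPQ-ABL1 line 3). The immunoproteasome genes Psmb8 (1.57-fold, adjusted p = 0.00232) and Psmb9 (1.53-fold, adjusted p = 0.00222) were higher, with Tap2, Tapbp and H2-DMa. The class I regulator gene Nlrc5 stood at 0.755, 0.562, 0.714 and 1.18 CPM with BCR-ABL1 and at 0.134, 0.0650, 0.195 and 0.0981 CPM with SFPQ-ABL1 (6.38-fold lower, adjusted p = 0.000569). Cd74, the invariant chain gene of class II, stood at 6.38, 21.7, 9.61 and 9.57 CPM with BCR-ABL1 and at 0.857, 2.68, 1.19 and 2.52 CPM with SFPQ-ABL1 (6.54-fold lower, adjusted p = 0.00242). In both the lines were apart, and the class I genes H2-K1 and H2-D1 were not called (log2 fold changes 0.15 and 0.22).

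Targets of p53, the factor that answers DNA damage with arrest and death, were lower in 12 of 19 and higher in 1 (median -0.98). Eda2r, a receptor gene of the TNF receptor family, stood at 36.1, 31.4, 52.9 and 66.5 CPM with BCR-ABL1 and at 6.31, 5.74, 12.8 and 9.91 CPM with SFPQ-ABL1 (5.38-fold, log2 fold change -2.43 ± 0.36 SE, adjusted p = 0.000582). Zmat3, a p53-induced RNA-binding protein gene, stood at 167, 113, 161 and 191 CPM with BCR-ABL1 and at 59.8, 43.1, 80.1 and 69.4 CPM with SFPQ-ABL1 (2.505-fold, log2 fold change -1.32 ± 0.20 SE, adjusted p = 0.000646). The cell cycle inhibitor gene Cdkn1a, named after its values were seen, stood at 403, 459.8, 585 and 595 CPM with BCR-ABL1 and at 125, 166, 261 and 213 CPM with SFPQ-ABL1 (2.67-fold, adjusted p = 0.000975). No SFPQ-ABL1 line reached a BCR-ABL1 line in these genes. Phlda3, an AKT repressor gene, was 2.35-fold lower (adjusted p = 0.000746). Sesn1 was the member called higher, at 24.3, 20.1, 16.1 and 20.8 CPM with BCR-ABL1 and at 30.2, 41.5, 35.4 and 34.5 CPM with SFPQ-ABL1 (1.74-fold, adjusted p = 0.000773), and without SFPQ-ABL1 line 2 there were 2. FOXO-activated genes were higher in 3 of 11 and lower in 1 (36.4% called beside 26% of all genes). Their median of 0.05 turned to -0.13 without BCR-ABL1 line 4 and to -0.04 without SFPQ-ABL1 line 3. The higher ones were Irs2, an insulin receptor substrate gene, at 1.25, 1.32, 0.805 and 1.87 CPM with BCR-ABL1 and at 4.25, 4.52, 11.5 and 8.01 CPM with SFPQ-ABL1 (5.38-fold, adjusted p = 0.00152), Sesn1 and Pik3ip1 (1.76-fold). Pik3ip1 was not called by limma-voom (adjusted p = 0.0732) or without BCR-ABL1 line 1, 2 or 3 or without SFPQ-ABL1 line 3 or 4 (0.0605 to 0.112). The lower one was Ddit4, an mTORC1 inhibitor gene that ATF4 also induces (3.98-fold, adjusted p = 0.00333), and 2 were lower without BCR-ABL1 line 1.

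Of the 7 pro-death BCL-2 family genes measured, 3 were lower and 1 higher (median -0.35, and -0.06 without SFPQ-ABL1 line 1). Bbc3, which encodes the p53-induced protein PUMA, stood at 74.3, 63.4, 116 and 108 CPM with BCR-ABL1 and at 15.8, 23.7, 27.8 and 28.4 CPM with SFPQ-ABL1 (3.79-fold, log2 fold change -1.92 ± 0.23 SE, adjusted p = 0.000189). The effector gene Bax stood at 122, 105, 143 and 127 CPM with BCR-ABL1 and at 75.6, 84.1, 91.04 and 75.01 CPM with SFPQ-ABL1 (1.52-fold, adjusted p = 0.00253) and Bid was 1.399-fold lower (adjusted p = 0.00915). Every SFPQ-ABL1 line was under every BCR-ABL1 line in these. Bad was 1.52-fold higher (adjusted p = 0.0297) and was not called without BCR-ABL1 line 2, 3 or 4 or without SFPQ-ABL1 line 1 or 3 (adjusted p = 0.0598 to 0.0775). Of 7 pro-survival members (28.6% called beside 26% of all genes), Bcl2l1 and Bcl2l2 were lower and none higher, Bcl2l2 1.42-fold (adjusted p = 0.00452). Their median of -0.61 was -0.15 without BCR-ABL1 line 4, -0.94 without BCR-ABL1 line 1 and -1.20 without SFPQ-ABL1 line 4. Mcl1 and Bcl2 were not called (log2 fold changes 0.09 and -0.06). Bcl2a1a, Bcl2a1b and Bcl2a1d, near-identical copies between which reads can be shared, were not called either and are uncertain. Without BCR-ABL1 line 1, Bcl2a1d was called (adjusted p = 0.0381).

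Ribosome biogenesis genes, which make ribosomal RNA and assemble subunits, were lower in 8 of 24 and higher in none (33.3% called beside 26% of all genes, median -0.39), with 2 lower without SFPQ-ABL1 line 3 and 4 without SFPQ-ABL1 line 4. A fit with the replicate number as a block gave 13 lower. Npm1, the nucleophosmin gene, stood at 697, 728, 809.6 and 640.4 CPM with BCR-ABL1 and at 409, 559, 349 and 386 CPM with SFPQ-ABL1 (1.69-fold, log2 fold change -0.76 ± 0.15 SE, adjusted p = 0.00355). The RNA helicase gene Ddx21 stood at 442, 422, 439.9 and 425 CPM with BCR-ABL1 and at 346, 288, 234 and 236 CPM with SFPQ-ABL1 (1.57-fold, adjusted p = 0.0146; 0.0507 without SFPQ-ABL1 line 3). Both were apart, and SFPQ-ABL1 line 1 was the nearest to BCR-ABL1 in Ddx21 and line 2 in Npm1. Pes1 was 1.29-fold lower and Nop14 1.399-fold, Nop14 not without SFPQ-ABL1 line 3 (adjusted p = 0.0581). Glycolysis genes were lower in 4 of 19 and higher in none (21.1% called beside 26% of all genes, median -0.42). Leaving out single lines gave 1 to 8 lower. That count was 1 without BCR-ABL1 line 2 or 3 or without SFPQ-ABL1 line 3 or 4, 2 without BCR-ABL1 line 4 or without SFPQ-ABL1 line 1, and 8 without BCR-ABL1 line 1 or without SFPQ-ABL1 line 2. Without SFPQ-ABL1 line 1 there was 1 higher. With the replicate number as a block there were 11 lower and 1 higher. Pgk1, a glycolytic kinase gene, stood at 304, 391.9, 355 and 345 CPM with BCR-ABL1 and at 154, 269, 204 and 189 CPM with SFPQ-ABL1 (1.71-fold, adjusted p = 0.00208). The glucose transporter gene Slc2a3 stood at 1071, 3176, 2778 and 2790.2 CPM with BCR-ABL1 and at 155, 1387, 501 and 649.7 CPM with SFPQ-ABL1 (3.64-fold, adjusted p = 0.0215; 5.63-fold without SFPQ-ABL1 line 2). Pgk1 did not overlap, whereas SFPQ-ABL1 line 2 lay above BCR-ABL1 line 1 in Slc2a3, and Slc2a3 was not called without BCR-ABL1 line 2 or 3 or without SFPQ-ABL1 line 3 or 4 (adjusted p = 0.0507 to 0.0641). Aldoa and Pkm were 1.43-fold and 1.41-fold lower with overlapping lines, and each lost its call without BCR-ABL1 line 2, 3 or 4 or without SFPQ-ABL1 line 1, 3 or 4 (adjusted p = 0.0602 to 0.0943).

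Oxidative phosphorylation genes were higher in 3 of 26, Ndufv2, Ndufa1 and Sdha (1.32-, 1.26- and 1.16-fold), and lower in none (median 0.07, and 0.02 to 0.09 over single libraries left out). None was higher without MSCV line 1, BCR-ABL1 line 4 or without SFPQ-ABL1 line 1, 2 or 3, and 1 was without BCR-ABL1 line 1, 2 or 3. The calls lost on leaving out a library had adjusted p of 0.052 to 0.119. At 11.5% the share called was under the 26% of all genes. S phase and DNA replication genes were higher in 4 of 24 and lower in 1 (median 0.12, and 0.04 to 0.16 over single libraries left out), with 3 lower without SFPQ-ABL1 line 2. Their share called, 20.8%, was also under that of all genes. Rrm2, a ribonucleotide reductase subunit gene, stood at 280.1, 348, 313 and 248 CPM with BCR-ABL1 and at 138, 167, 156 and 129 CPM with SFPQ-ABL1 (2.02-fold lower, log2 fold change -1.01 ± 0.12 SE, adjusted p = 0.000208). The helicase subunit gene Mcm6 stood at 371, 271, 315 and 276 CPM with BCR-ABL1 and at 514, 487, 475 and 439.7 CPM with SFPQ-ABL1 (1.55-fold higher, log2 fold change 0.63 ± 0.11 SE, adjusted p = 0.00138). Tyms (1.53-fold) and Mcm4 (1.42-fold) were higher too, and Rrm2, Mcm6, Tyms and Mcm4 were apart in every line. G2 and mitosis genes were higher in 6 of 24 and lower in none (25% called beside 26% of all genes, median 0.10). Their count was 2 without BCR-ABL1 line 3 or 4 and 3 without SFPQ-ABL1 line 1. Cdc20, an activator of the anaphase-promoting complex, stood at 114, 100.4, 104 and 109 CPM with BCR-ABL1 and at 151, 142, 142 and 132 CPM with SFPQ-ABL1 (1.33-fold, adjusted p = 0.00314), and the kinetochore gene Cenpf was 1.51-fold higher (adjusted p = 0.00398). Mki67, the usual marker of cycling cells, was not called (log2 fold change -0.24, adjusted p = 0.0991).

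**Figure D5:**
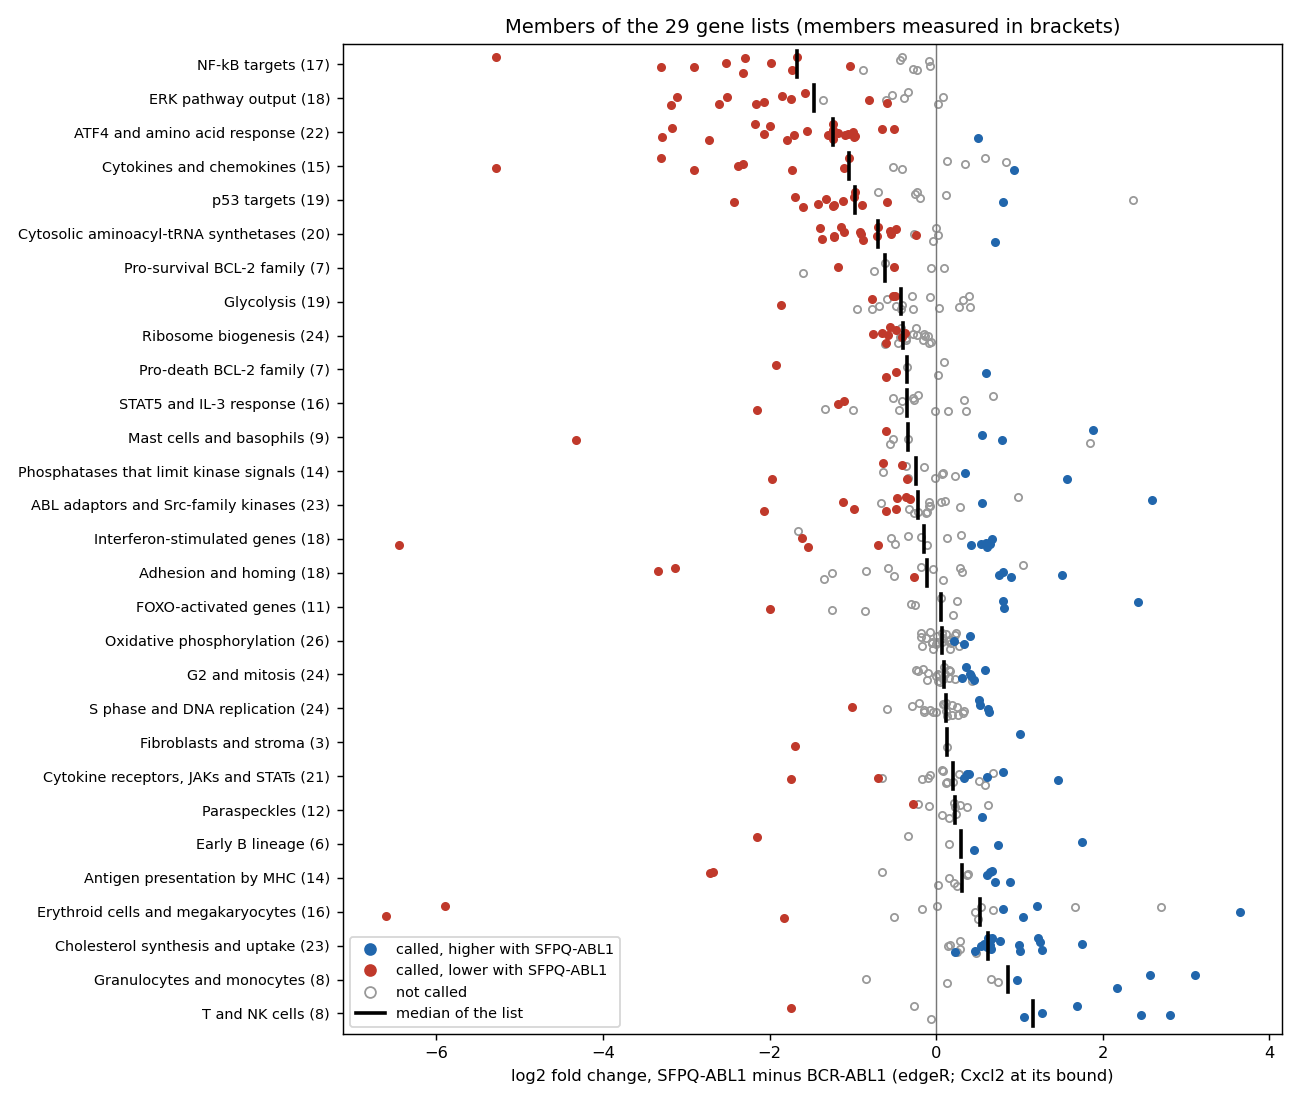
Log2 fold change, SFPQ-ABL1 minus BCR-ABL1 (horizontal axis), of every measured member of the 29 gene lists (rows, ordered by median, number measured in brackets), filled where called and open where not, with a black bar at the median; Cxcl2 is drawn at its bound. The ATF4 list has all but 1 of its 22 members to the left of 0, and the cholesterol list all 23 to the right.

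Lineage lists hold genes of cell types beside the pro-B label. Granulocyte and monocyte genes were higher in 4 of 8 and lower in none (median 0.86). Mpo, the myeloperoxidase gene, stood at 9.300, 2.41, 4.27 and 4.85 CPM with BCR-ABL1 and at 76.04, 19.2, 41.5 and 43.5 CPM with SFPQ-ABL1 (8.64-fold, log2 fold change 3.11 ± 0.50 SE, adjusted p = 0.000909). Ms4a3, a granulocyte progenitor marker gene, stood at 301, 169.9, 162 and 260.2 CPM with BCR-ABL1 and at 453, 449.9, 431 and 418 CPM with SFPQ-ABL1 (1.96-fold, adjusted p = 0.00736). The granule protease gene Prtn3 stood at 54.6, 29.8, 42.1 and 78.9 CPM with BCR-ABL1 and at 244, 59.2, 313 and 309 CPM with SFPQ-ABL1 (4.502-fold, adjusted p = 0.0121). SFPQ-ABL1 line 2 was the lowest for Mpo and Prtn3 and overlapped BCR-ABL1 line 4 in Prtn3. Elane (5.92-fold, at most 1.93 CPM in any fusion line) was not called by limma-voom (adjusted p = 0.166) or without BCR-ABL1 line 2, 3 or 4 or without SFPQ-ABL1 line 1 or 3 (0.0514 to 0.0786). Early B-lineage genes were measurable for 6 of 23 listed, of which Cd79a, Cd79b and Vpreb1 were higher and Ikzf1 lower (median 0.30), Cd79a not without BCR-ABL1 line 3 or without SFPQ-ABL1 line 3 (adjusted p = 0.0502 and 0.0511). Vpreb1 was near the floor, at 0.0607 to 0.0959 CPM with BCR-ABL1 and 0.164 to 0.402 CPM with SFPQ-ABL1. Cd79b stood at 24.2, 22.4, 20.1 and 15.4 CPM with BCR-ABL1 and at 36.6, 34.8, 31.9 and 34.6 CPM with SFPQ-ABL1 (1.68-fold, adjusted p = 0.00143). Ikzf1, the gene of the lymphoid factor Ikaros, stood at 7.37, 5.92, 4.98 and 18.2 CPM with BCR-ABL1 and at 1.099, 3.001, 2.86 and 1.21 CPM with SFPQ-ABL1 (4.45-fold, adjusted p = 0.00496). The lines were apart in both, with BCR-ABL1 line 4 highest in Ikzf1 (2.97-fold without it).

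Mast cell and basophil genes were higher in 3 of 9 (Fcer1g, Ms4a2 and Epx) and lower in 2 (Gata2 and Cpa3), and their median of -0.34 turned to 0.12 without BCR-ABL1 line 2. Without BCR-ABL1 line 3 or without SFPQ-ABL1 line 4 only 1 was higher (Ms4a2 at adjusted p = 0.0566 and 0.0576), and without BCR-ABL1 line 2 or without SFPQ-ABL1 line 1, 3 or 4 only 1 was lower. Gata2, a progenitor transcription factor gene, stood at 1577, 1366, 1508 and 1329.7 CPM with BCR-ABL1 and at 814, 1356, 854 and 797 CPM with SFPQ-ABL1 (1.51-fold lower, adjusted p = 0.0138; 1.76-fold without SFPQ-ABL1 line 2). In this gene SFPQ-ABL1 line 2 lay among the BCR-ABL1 lines. Cpa3, a mast cell protease gene, stood at 0.876, 42.2, 4.75 and 4.35 CPM with BCR-ABL1 and at 0.0268, 2.35, 0.0973 and 0.0981 CPM with SFPQ-ABL1 (20.1-fold lower, adjusted p = 0.0286). Line 2 was the highest in both groups, and without BCR-ABL1 line 2 the difference was 5.13-fold and the call lost (adjusted p = 0.158), as it was without SFPQ-ABL1 line 1, 3 or 4 (0.0595 to 0.0761), while it was 173-fold without SFPQ-ABL1 line 2. Epx was also not called without any of BCR-ABL1 lines 2 to 4 or without SFPQ-ABL1 lines 1, 3 and 4 (0.0568 to 0.105). Erythroid and megakaryocyte genes were higher in 4 of 16 and lower in 3 (43.8% called beside 26% of all genes, median 0.52), with 7 higher without BCR-ABL1 line 1. Tfrc, the transferrin receptor gene, stood at 232, 363, 299 and 280.1 CPM with BCR-ABL1 and at 491, 569, 617 and 739.8 CPM with SFPQ-ABL1 (2.06-fold higher, adjusted p = 0.00290). The platelet chemokine gene Ppbp had 0.553, 2.01, 0.972 and 2.53 CPM with BCR-ABL1 and 4 counts in all with SFPQ-ABL1 (97.6-fold lower, adjusted p = 0.000216). Without SFPQ-ABL1 line 4 a single count was left, a ratio of 350 with a counting interval of 62.4 to 13841. Both genes separated the groups in every line.

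T and NK cell genes were higher in 5 of 8 and lower in 1, Il2rb (median 1.17), and apart from Il2rb, Lck and Gzmb all were under 3 CPM in both group means. The median was -0.16 among members at a mean of 1 CPM or more. Tcf7, a T cell factor gene, stood at 0.216, 0.0548, 0.0911 and 0.0775 CPM with BCR-ABL1 and at 0.375, 0.701, 1.204 and 0.867 CPM with SFPQ-ABL1 (7.02-fold higher, adjusted p = 0.00216) and Cd5 was 5.49-fold higher (adjusted p = 0.00118). Both were higher in every SFPQ-ABL1 line, but the count higher was 2 without BCR-ABL1 line 3 or 4 or without SFPQ-ABL1 line 3 and 3 without BCR-ABL1 line 1 or without SFPQ-ABL1 line 2. Of 3 measured fibroblast and stroma genes, the collagen gene Col5a1 stood at 344, 173, 226 and 199.6 CPM with BCR-ABL1 and at 457, 470.2, 518 and 442 CPM with SFPQ-ABL1 (2.003-fold higher, adjusted p = 0.00298), without overlap. Acta2 was 3.23-fold lower (adjusted p = 0.0256; 2.14-fold without BCR-ABL1 line 4) but not called without BCR-ABL1 line 4 or without SFPQ-ABL1 line 1, 2 or 3 (0.0604 to 0.0971), and Col1a1 was not called (list median 0.13, which turned to -0.03 without BCR-ABL1 line 4 and -0.17 without SFPQ-ABL1 line 2). Adhesion and homing genes were higher in 4 of 18 and lower in 3 (38.9% called beside 26% of all genes, median -0.11), and without BCR-ABL1 line 4 the median turned to 0.01 with 2 lower. Itgal, the alpha chain gene of the integrin LFA-1, stood at 52.6, 37.7, 49.1 and 54.6 CPM with BCR-ABL1 and at 2.99, 4.26, 7.01 and 7.95 CPM with SFPQ-ABL1 (8.75-fold lower, log2 fold change -3.13 ± 0.36 SE, adjusted p = 0.000149). Cxcr4, the receptor gene that holds cells in bone marrow, stood at 111, 70.4, 69.8 and 101 CPM with BCR-ABL1 and at 233, 220.1, 294 and 251 CPM with SFPQ-ABL1 (2.84-fold higher, log2 fold change 1.51 ± 0.20 SE, adjusted p = 0.000307). Itga5, a fibronectin receptor gene, stood at 85.1, 73.9, 72.5 and 86.5 CPM with BCR-ABL1 and at 170.3, 115, 144 and 124 CPM with SFPQ-ABL1 (1.74-fold higher, adjusted p = 0.000529). All 3 were apart, and the others called were Itga4 and Selplg (higher) and Ccr7 and Icam2 (lower). Ccr7 was 10.1-fold lower, 15.4-fold without SFPQ-ABL1 line 2. Itga4 was not called without BCR-ABL1 line 2 or 3 or without SFPQ-ABL1 line 3 or 4 (adjusted p = 0.0523 to 0.085), and Icam2 (1.197-fold) without any single fusion line (0.0563 to 0.115), without MSCV line 1 or 4 (0.0542 and 0.0578), without TMM factors (0.142), without a filter on low counts (0.188) or by limma-voom (0.0502).

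The paraspeckle list holds partners of SFPQ in those nuclear bodies. Of its 12 measured genes Rbm14 was higher, at 36.3, 31.9, 34.2 and 34.3 CPM with BCR-ABL1 and at 50.8, 56.9, 48.04 and 45.2 CPM with SFPQ-ABL1 (1.47-fold, adjusted p = 0.00382), and Cpsf6 lower (1.21-fold, adjusted p = 0.0251), with a median of 0.22 (0.11 without BCR-ABL1 line 2). Rbm14 was apart in every line, and the share of the list called was 16.7%, beside 26% of all genes. Cpsf6 lost its call without TMM factors (adjusted p = 0.076), without a filter on low counts (0.109) and without BCR-ABL1 line 2 or 4 or without SFPQ-ABL1 line 3 or 4 (0.0648 to 0.0836). The count higher was 2 without BCR-ABL1 line 2 or 4, and the count lower was 2 without MSCV line 2. Counted per gene, Sfpq stood at 276, 212, 297 and 324 CPM with BCR-ABL1 and at 426, 369, 326 and 315 CPM with SFPQ-ABL1 and was not called (adjusted p = 0.0625). It was called without BCR-ABL1 line 4 (1.37-fold higher, adjusted p = 0.0414), without TMM factors (0.0288) and by DESeq2 (0.0484). Abl1 stood at 119, 108, 117 and 124 CPM with BCR-ABL1 and at 116, 104, 129.8 and 134 CPM with SFPQ-ABL1 (adjusted p = 0.775), and neither gene separated the groups. Bcr was 1.22-fold higher with SFPQ-ABL1 (adjusted p = 0.0226), but not without a filter on low counts (0.0756) or without BCR-ABL1 line 1, 2 or 3 or without SFPQ-ABL1 line 1 or 3 (0.0522 to 0.0676). Loss of SFPQ is known to impair transcription of very long genes. Among 403 tested genes that span 200 kb or more, 62 were higher and 63 lower (31.0% called, median -0.01), beside 26% of all genes tested.

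Lines of the same fusion differed from each other most in a few genes, chosen by their spread alone. Among BCR-ABL1 lines these were Cpa3 and Aldh1a1, given above, with Gzmb at 11.1, 48.2, 0.850 and 17.8 CPM and Aff3 at 0.553, 9.94, 0.744 and 20.9 CPM. In SFPQ-ABL1 lines 1 to 4, Gzmb, a cytotoxic granule protease gene, had 1.29, 45.6, 4.31 and 23.6 CPM, so that line 2 was highest in both groups. Aff3, a transcription elongation factor gene, had 23.3, 35.2, 26.3 and 42.5 CPM there and was not called (adjusted p = 0.0934). It was called without BCR-ABL1 line 4 (8.48-fold higher, adjusted p = 0.0215), without a filter on low counts (0.0456) and by limma-voom (0.0105). Among SFPQ-ABL1 lines the sialyltransferase gene St6gal1 stood at 1.75, 174, 9.29 and 26.3 CPM, against 53.98, 288, 136 and 68.8 CPM with BCR-ABL1. Rgs1, a G protein regulator gene, stood at 0.388, 48.4, 2.47 and 3.21 CPM, against 20.3, 79.6, 87.2 and 72.7 CPM. Line 2 alone reached the BCR-ABL1 range in either gene. Neither was called (adjusted p = 0.321 and 0.133), but without SFPQ-ABL1 line 2 both were, 11.01-fold and 32.3-fold lower (adjusted p = 0.00958 and 0.00124), and limma-voom also called Rgs1 (0.0135). Stxbp6 stood at 1.701, 0.0520, 29.98 and 3.25 CPM and the calcium-binding protein gene S100g at 12.8, 0.130, 32.4 and 2.404 CPM, with BCR-ABL1 lines at no more than 0.604 and 0.186 CPM. Line 3 was highest in both and line 2 lowest. Stxbp6 (48.8-fold higher, adjusted p = 0.0167; 200.1-fold without BCR-ABL1 line 4) was not called without SFPQ-ABL1 line 3 (9.19-fold, adjusted p = 0.0902) or BCR-ABL1 line 3 (0.051) or by limma-voom (0.202). S100g (211-fold higher, adjusted p = 0.00243; 89.5-fold without SFPQ-ABL1 line 3) was not called by limma-voom (0.124), and without BCR-ABL1 line 4 it was left with 3 counts in that group, a ratio of 909 with a counting interval of 311 to 4407.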

How the data were processed

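RNA from 12 Ba/F3 lines was sequenced, and the authors deposited whole-number read counts per gene and per exon for each line. Alignment with Subread and counting with featureCounts on mm10 are named in the submitters' processing notes; the sources used here give no version, annotation or use of strand. Gene names, spans and exons were taken from GENCODE release M21, which held 55230 of the 55471 gene IDs. Columns were matched to lines by name, and the exon table held 18.0% of the gene total.

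Genes passing filterByExpr (17197) were fitted by group alone over the 12 libraries, using TMM factors and edgeR's quasi-likelihood test (edgeR 4.0.16, R 4.3.3). P-values were two-sided, adjusted by Benjamini-Hochberg over all genes tested, and called under 0.05. The lines are described as independent, but nothing says how they were derived, so that p-values measure the spread between these lines. Chi-square over degrees of freedom between libraries of a group was 33.1 to 182, so that none was taken for a copy of another. Alternatives were DESeq2 1.42.0, limma-voom (limma 3.58.1), other size factors and filters, the 8 libraries alone, a replicate block, a test against a 1.5-fold change and leaving out each library. Tested on simulated data for this comparison (16960 genes), the fit called 62.6% of genes changed 2-fold, 84.8% of those changed 4-fold and 0.0358% of unchanged genes. These rates belong to those data alone, and whether they carry over to the measured libraries was not tested.

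A gene with 0 counts in a group was bounded against 3 counts over the group, and ratios on 1 to 3 counts have 95% exact intervals, which cover counting error only. Genes named first were those called, protein coding and without overlap between the lines that had the 10 largest changes in each direction (5 CPM or more), the 6 largest at 100 CPM or more and the 4 smallest adjusted p, then up to 4 members of each of 29 lists with the smallest adjusted p, the fusion partner genes, and the 4 genes of largest spread in each group (20 CPM or more in a line). Other members named were chosen after their values were seen. The groups and gene lists were chosen with earlier results of these data known, and 25 genes are on more than 1 list. The reading of a line held out at called genes was added after seeing the data. A few genes are counted in their lists but are not reported here by name. Levels are CPM and are not compared between genes.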

Additional observations from a re-analysis of the deposited data

Results flagged for a closer look

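In 272 sets of 4 lines, each a gene named by rule in 1 fusion with a line at 1 CPM or more, the highest or lowest line was compared with the rest by Dixon's ratio. In sets chosen without regard to their values, chance would flag about 1 in 20. These sets include genes chosen for their spread between lines, so the 20 that were flagged cannot be set against that rate. The value of each and the range of the other 3 lines follow, all in CPM.

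BCR-ABL1 line 4 stood above its group in 7 genes. It had 1.81 of Nlrp6 (others 0 to 0.0270), 4.55 of Ston2 (0.0759 to 0.288) and 40.2 of Aldh1a1 (0.683 to 2.32). It had 3.86 of Slamf1 (0.531 to 0.946), 67.7 of Lcn2 (4.003 to 14.6), 3.58 of Mx1 (0.418 to 0.754) and 208 of Ptpn12 (155 to 164). In Nlrp6, Ston2, Aldh1a1 and Slamf1 the line thus lay toward the SFPQ-ABL1 lines, and in Lcn2, Mx1 and Ptpn12 further from them than the rest of its group.

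BCR-ABL1 line 2 stood above its group with 35.9 of Gpr141 (1.75 to 2.22), 98.3 of Nfkbia (34.5 to 45.1) and 42.2 of Cpa3 (0.876 to 4.75), and below it with 38.1 of Il3ra (46.3 to 46.9). In all 4 genes it lay further from the SFPQ-ABL1 lines than the rest of its group.

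SFPQ-ABL1 line 2 stood apart in 7 genes. It had 77.4 of Dmpk (2.72 to 11.2), 193 of Ccnd2 (152 to 155), 1356 of Gata2 (797 to 854) and 2.35 of Cpa3 (0.0268 to 0.0981). It had 174 of St6gal1 (1.75 to 26.3) and 48.4 of Rgs1 (0.388 to 3.21), and was low in Stat2 at 44.6 (57.6 to 59.7). In each of these 7 genes the line lay toward the BCR-ABL1 lines.

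Of the other SFPQ-ABL1 lines, line 4 had 96.7 of Ndufv2 (113 to 116) and line 3 had 29.98 of Stxbp6 (0.0520 to 3.25).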

How the results depend on the processing

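With 4 lines a group, leaving out a library in turn gave 3161 to 5026 genes called, 1568 to 2560 of them higher and 1585 to 2466 lower. A test against a 1.5-fold change called 308 higher and 419 lower, 727 in all. The counts under the other settings were within 1.5 times 4471, from 3847 without both BCR-ABL1 line 4 and SFPQ-ABL1 line 2 to 5336 with a replicate block. Over the settings run, the named genes gave 3374 values, of which 3167 kept their direction and side of the threshold, 185 fell short of it, 22 passed it and 0 reversed. The counts of called list members stayed within 1.5 times in 1117 of 1276 values, and 617 of 638 list medians moved by less than the spread between lines. A median larger than the spread between lines changed sign for the mast cell list without BCR-ABL1 line 2 (0.12 against -0.34, and -0.37 to 0.12 over all libraries left out) and for the T and NK cell list among genes at a mean of 1 CPM or more (-0.16 against 1.17), where fewer members were tested. Smaller medians that changed sign stand beside their lists. The cause of the other changes was not tested.

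The labels number the lines 1 to 4 in each group. Deviations of same-numbered BCR-ABL1 and SFPQ-ABL1 lines from their group means correlated at 0.356, 0.264, 0.0496 and 0.346. Differently numbered lines of these groups correlated at -0.301 to 0.101. Lines 1, 2 and 4 of BCR-ABL1 correlated best with the SFPQ-ABL1 line of their number, and line 3 with line 2 (0.101). Same-numbered MSCV lines correlated at 0.0665, 0.136, 0.313 and 0.385 with SFPQ-ABL1 and at 0.0156, -0.00632, 0.0404 and 0.268 with BCR-ABL1. The labels do not say what the number stands for, and the main fit leaves it out. With a replicate block 5336 genes were called, 2647 higher and 2689 lower, glycolysis had 11 lower and 1 higher in place of 4 and 0, and ribosome biogenesis 13 lower in place of 8.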

Other observations

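By annotated class, 1840 of 12096 protein-coding genes tested were called higher with SFPQ-ABL1 and 1759 lower (15.2% and 14.5%, median log2 fold change 0.02). Over all genes tested, 13.2% were higher and 12.8% lower. Antisense genes had 97 of 719 higher and 45 lower (13.5% and 6.26%, median 0.19). Their share higher was near that of all genes and their share lower was under it. Processed pseudogenes had 95 of 2103 higher and 217 lower (4.52% and 10.3%, median -0.14), both shares under those of all genes. The sources used here do not give the use of strand in counting, so reads of an antisense gene and its partner cannot be told apart, and pseudogenes can share reads with their parent genes. Long intergenic RNA genes had 89 of 627 higher and 74 lower (14.2% and 11.8%, median 0.06), near the shares of all genes.

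By chromosome, calls leaned to higher on chromosome 17 (20.2% higher and 7.62% lower, median 0.15) and chromosome 15 (19.9% and 7.45%, median 0.12), and to lower on chromosome 3 (6.88% and 17.0%, median -0.14). These chromosomes were singled out after their values were seen, and no test was made. Among genes at 5 CPM or more on chromosome 17, the median deviation of a line from the median of the 12 lines was -0.12 to -0.04 on the log2 scale in the BCR-ABL1 lines and -0.03 to 0.14 in the SFPQ-ABL1 lines, ranges that lay close but did not overlap. On chromosome 15 the ranges were -0.165 to 0.030 and -0.022 to 0.117, and on chromosome 3 they were -0.052 to 0.130 and -0.143 to 0.033. The lines of the groups overlapped on both.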
